A study of Mus musculus with 2 samples.

Results

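The genes described here make cholesterol and fatty acids, control that synthesis, and move or store sterols. The list named 38 genes in 5 role groups, and a gene was taken when its symbol stood in the deposited count table. Of these, 35 of the 38 were found among 16040 genes in all. Hmgcs1, the synthase that opens the mevalonate route, was not analysed here. Abca1 and Abcg1, which pump sterols out of cells, have no value here because the table files such transporters under a phrase from the family name in place of a gene symbol, and an entry of that kind may pool several genes.

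The samples were lung fibroblasts of Col1a2-EGFP mice, whose strain name ties an enhanced green fluorescent protein reporter to Col1a2, a type 1 collagen gene. They were taken 14 days after bleomycin or after saline was given into the trachea. Both groups carried the reporter. Bleomycin damages DNA and is a standard way to bring about fibrosis of the rodent lung. Sorted cells were GFP-positive and lacked lineage markers, so cells with little reporter are not represented. Each group is 1 serial analysis of gene expression (SAGE) library, a method that counts 1 short tag for each transcript at a cut site close to its 3′ end. Each was made from cells of 3 mice, and the sources used here do not state their age or sex.

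The bleomycin library held 1099840 counts over 12918 genes and the saline library 1080798 counts over 12275 genes. All 9 fibroblast markers were counted in both libraries. The type 1 collagen gene Col1a1 had 7925 counts in bleomycin and 2714 in saline and the reporter gene Col1a2 5613 and 1636, and both were called higher, as was Fn1. Dcn, at 1606 counts in bleomycin and 4861 in saline, and Tcf21, at 93 and 338, were called lower. Summed over the 12 leukocyte markers found, counts were 10 in bleomycin and 5 in saline. Smooth muscle and pericyte markers summed to 1103 counts in bleomycin and 1150 in saline, with 1 of 11 tested called higher and 5 lower, and mesothelial markers summed to 9 in each. Endothelial and epithelial markers had fewer counts in the bleomycin library: 15 endothelial markers summed to 105 counts in bleomycin and 674 in saline, 11 alveolar type 2 markers to 11 and 170, and 8 airway markers to 182 and 597. Sftpc made up 7 and 154 of the alveolar type 2 counts, while Nkx2-1, Cdh1, Lamp3 and Sftpd were at 0 in both libraries. Tppp3 made up 153 and 535 of the airway counts, and the endothelial marker Emcn was at 0 in both libraries. Cells of these types also make lipid. Whether they were present, and their part in the results on sterol and fatty acid genes, was not tested. In sorted bulk cells, fewer cells of a type and less RNA per cell cannot be told apart.

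Cholesterol is built from acetyl-CoA through mevalonate, isoprenoid diphosphates, squalene and lanosterol. Fatty acids share the same acetyl-CoA, which is carboxylated, condensed, lengthened and desaturated. Both routes are switched on by SREBP transcription factors, which Scap carries out of the endoplasmic reticulum when sterols are low and which Insig proteins hold back when sterols are high. SREBPs are known to act at promoters together with NF-Y, a factor that binds the CCAAT box. In lung, these pathways are best known for surfactant lipid in alveolar type 2 cells and for lipid-laden fibroblasts beside them.

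Promoter sequence bears on how such genes are switched together, so the windows of 250 bases before to 50 after each start site were read from RefSeq (build GRCm38.p6, which is not the mm9 named for these libraries) for the 27 genes of the set with an entry. Fdps, Fdft1, Sqle, Stard4, Npc1, Scd1, Scd2 and Fads1 are named only. The 27 genes have 35 windows, some genes having more than 1 in the table, and a gene was counted when any of its windows held the letters. The letters CCAAT, on either strand, were found for 23 of the 27 genes (85.2%), against 42.9% of 6564 genes tested in these libraries and 41.1% of 27025 genes with a promoter entry. Acaca, Elovl6, Fads2 and Scap had none in the windows read. The stretches below hold every upstream CCAAT of the genes that were called lower in bleomycin (Idi1, Insig1, Srebf2 and Acss2), of Ebp, which was called higher, and of Fasn, which was not called. Capitals mark CCAAT or its reverse complement ATTGG.
Idi1, chr13:8885541-8885605, + strand: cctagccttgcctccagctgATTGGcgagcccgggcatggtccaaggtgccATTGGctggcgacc
Insig1, chr5:28071176-28071220, + strand: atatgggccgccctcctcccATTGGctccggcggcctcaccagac
Srebf2, chr15:82147114-82147158, + strand: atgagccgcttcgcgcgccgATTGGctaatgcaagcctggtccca
Acss2, chr2:155517950-155517994, + strand: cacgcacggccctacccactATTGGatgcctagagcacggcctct
Ebp, chrX:8193543-8193702, - strand: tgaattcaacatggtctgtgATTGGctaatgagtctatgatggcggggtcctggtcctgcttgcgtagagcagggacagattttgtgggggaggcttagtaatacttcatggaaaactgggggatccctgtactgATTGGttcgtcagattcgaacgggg
Fasn, chr11:120824582-120824657, - strand: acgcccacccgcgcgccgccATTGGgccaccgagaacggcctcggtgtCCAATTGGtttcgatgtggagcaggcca

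In Fasn, fatty acid synthase, a CCAAT on each strand overlaps in the run CCAATTGG. In the Idi1 stretch the boxes lie close to the start site, which follows its last base, whereas in Insig1 the box begins 216 bases upstream. A match is a description of the letters and not a site of binding. The box was present in 4 of 4 genes called lower, in 1 of 3 called higher and in 18 of 20 not called. Of the genes called higher, Acaca has a window whose start site directly follows letters like the end of an intron. That window may therefore not be a promoter, and its lack of a box is uninformative. Shares by call over all genes were not computed, so no link between the box and the calls can be read from these counts. The letters GGGCGG, a GC box, were in a window of 22 of 27 genes (81.5%), against 72.2% of genes tested, and the E-box CACGTG in 6 of 27 (22.2%), against 12.2%. A sterol regulatory element spelled TCACNCCAC was in a window of 0 of 27 genes, against 1.23% of genes tested. A looser spelling, TCACNCNAC, was in 1 of 27, that of Nsdhl, against 3.28%.

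**Figure D1:**
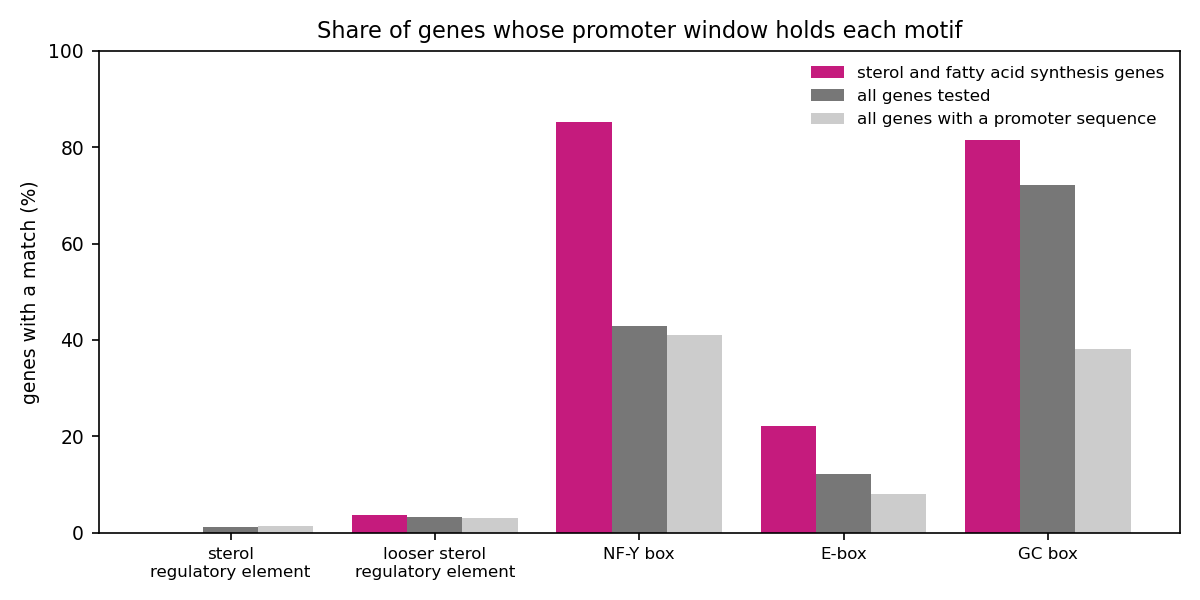
Bars give the percent of genes whose promoter window holds each motif on either strand, for 27 sterol and fatty acid synthesis genes, 6564 genes tested and 27025 genes with a promoter entry. The NF-Y box CCAAT was in 85.2%, 42.9% and 41.1% of them.

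The question behind the comparison is what changes in fibroblasts of a lung made fibrotic by bleomycin. For most genes of lipid synthesis no difference passed the test, and 7 genes were called, in both directions. Insig1 and Srebf2, which belong to the SREBP control system, and the enzymes Idi1 and Acss2 were lower in bleomycin, and the enzymes Ebp, Acaca and Elovl6 were higher. A gene was tested when it had at least 10 counts over both libraries. It was called when an exact binomial test on the counts gave a Benjamini-Hochberg adjusted p under 0.05 and the ratio, with 0.5 added to each count, was at least 2. With 1 library per group this test compares the libraries and not the conditions, and there is no replicate check of any difference.

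Of the 33 genes tested, 3 were called higher in bleomycin (9.09%) and 4 lower (12.1%). Over all 9369 genes tested, 8.08% were called higher and 8.52% lower, so the shares in the set lie near the background. In either direction the shares were 21.2% of the set and 16.6% of all tested genes. By size alone, 3 of 33 were at least 2-fold higher, against 12.3% of all tested genes, and 6 of 33 at least 2-fold lower, against 14.2%. The median log2 ratio was −0.22 over the 33 genes and 0.02 over all tested genes. The other 2 genes found, Fdft1 and Tm7sf2, were below 10 counts. Levels are given as counts and as CPM, the count divided by its library's size after TMM scaling (trimmed mean of M values).

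**Figure D2:**
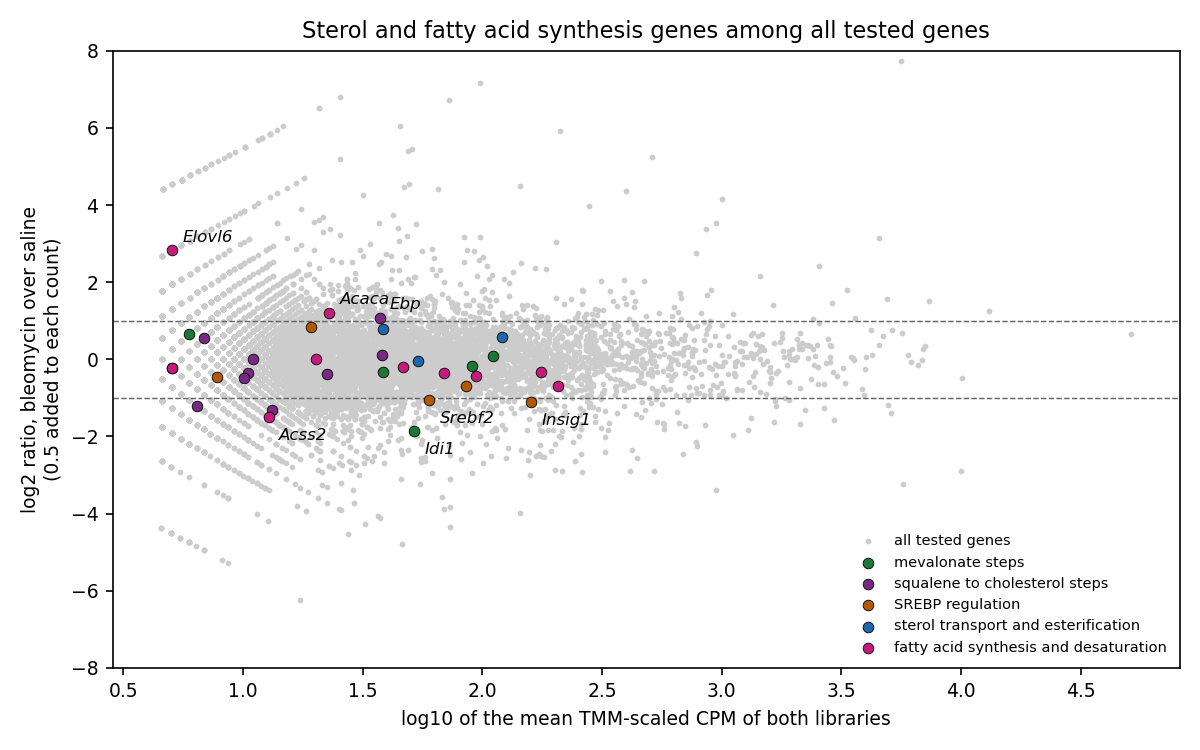
Each point is a gene with at least 10 counts, placed by the log10 of its mean TMM-scaled CPM on the x axis and its log2 ratio of bleomycin over saline on the y axis, with 0.5 added to each count. Grey points are all 9369 tested genes, coloured points the 33 sterol and fatty acid synthesis genes, and the 7 called genes are named.

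**Figure D3:**
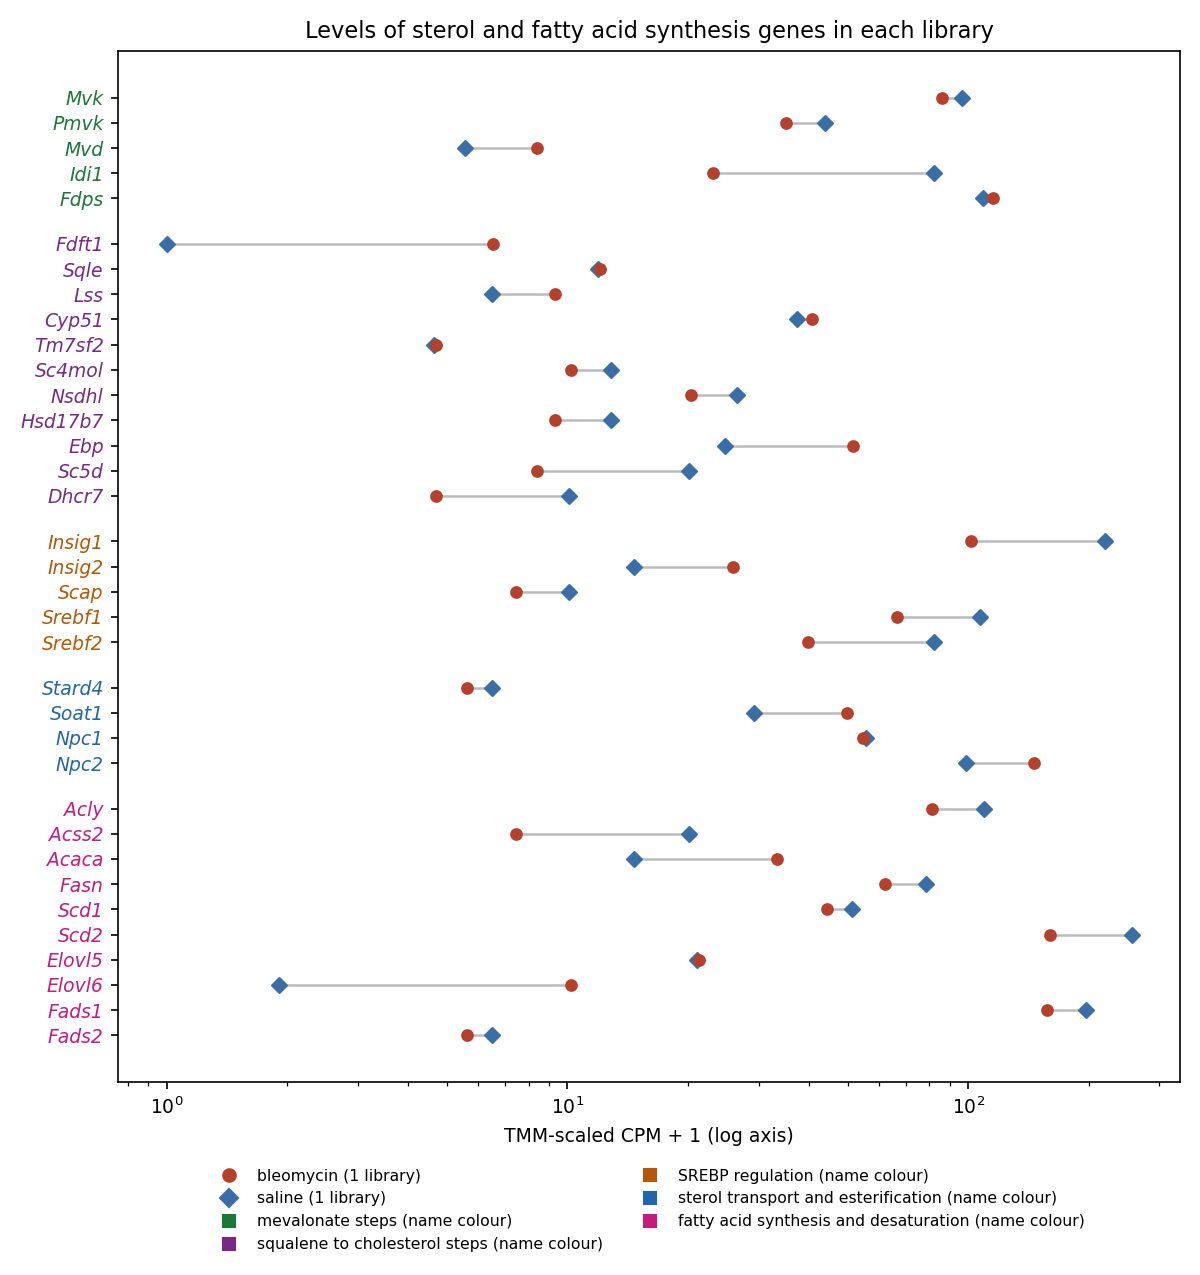
TMM-scaled CPM + 1 on a log axis for each of the 35 genes found, ordered by role, in the bleomycin (circles) and the saline library (diamonds). Scd2, Insig1 and Fads1 had the highest levels in saline, and Idi1 and Insig1 show wide gaps at well-counted levels.

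The early steps from mevalonate to farnesyl diphosphate held 1 called gene among 5 tested, Idi1, which was lower. Over all tested genes, 8.52% were called lower. Idi1, the isomerase that makes dimethylallyl diphosphate, had 24 counts (22.1 CPM) in bleomycin and 89 counts (81.2 CPM) in saline. It was 3.67-fold lower, with an exact 95% interval of 2.31 to 6.02 and an adjusted p of 1.01e-08 in the exact binomial test. Intervals of this kind cover counting error only.

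Fdps, which joins the isoprenoid units into farnesyl diphosphate, had 124 counts in bleomycin and 118 in saline. Mvk, mevalonate kinase, had 92 counts in bleomycin and 105 in saline, and Pmvk, which adds the next phosphate, had 37 and 47. None of these ratios passed the test, and the interval for Fdps ran from a ratio of 0.819 to 1.38. Mvd, which makes isopentenyl diphosphate, the substrate of Idi1, had 8 counts in bleomycin and 5 in saline, with an interval of 0.467 to 6.29 in which a 2-fold difference was not detectable at this depth.

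Relative to Fdps, Idi1 was 3.88-fold lower in bleomycin than in saline (2.27 to 6.83), a comparison within each library that does not depend on library scaling. Relative to Pmvk it was 2.9-fold lower (1.5 to 5.73). These pairs, and those below, were chosen after the counts were known. The 5 genes summed to 285 counts in bleomycin and 364 in saline, a ratio of 0.792 (0.676 to 0.927). Without Fdps, the most abundant, the ratio was 0.662 (0.539 to 0.811). Idi1 alone held 24 of the 285 counts in bleomycin and 89 of the 364 in saline, and no other gene of this segment passed the test. A sum without Idi1 was not computed, so the lower sum cannot be read as a change of the whole segment.

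The later steps, which turn farnesyl diphosphate into squalene, lanosterol and cholesterol, held 1 called gene among 9 tested, Ebp, which was higher. Over all tested genes, 8.08% were called higher. Ebp, the sterol isomerase of the emopamil-binding protein, had 55 counts (50.7 CPM) in bleomycin and 26 counts (23.7 CPM) in saline. It was 2.14-fold higher (1.32 to 3.55, adjusted p = 0.00632 in the exact binomial test).

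Genes at the end of the route were counted less often in bleomycin, without passing the test. Sc5d, which desaturates the sterol ring, had 8 counts in bleomycin and 21 in saline, a ratio of 0.385 (0.148 to 0.905), and its adjusted p of 0.0772 in the exact binomial test missed the threshold. Dhcr7, the reductase that completes cholesterol, had 4 counts in bleomycin and 10 in saline, and its interval of 0.0926 to 1.4 includes a ratio of 1. Relative to Sc5d, Ebp was 5.46-fold higher in bleomycin than in saline (2.0 to 16.3).

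Cyp51, the lanosterol demethylase, had 43 counts in bleomycin and 40 in saline, the highest level of this segment over both libraries. Sqle, the squalene epoxidase that is a control point of the pathway, had 12 counts in each library. Lss, which folds oxidosqualene into lanosterol, had 9 counts in bleomycin and 6 in saline. Their intervals all include a ratio of 1.

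The demethylation enzymes Nsdhl, Sc4mol (now Msmo1) and Hsd17b7 had 21, 10 and 9 counts in bleomycin and 28, 13 and 13 in saline, and none passed the test. Tm7sf2, a sterol reductase, had 4 counts in each library. Fdft1, squalene synthase, had 6 counts in bleomycin and 0 in saline. It was not tested, and the exact lower limit of its ratio is 1.19. The segment summed to 181 counts in bleomycin and 173 in saline, a ratio of 1.06 (0.854 to 1.31).

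Of the 5 SREBP control genes of the set, 2 were called, both lower in bleomycin. Over all tested genes, 8.52% were called lower, and 5 genes are too few to compare with that share. Insig1, which holds the SREBP complex in the endoplasmic reticulum and is itself a well-known SREBP target, had 109 counts (101 CPM) in bleomycin and 240 counts (219 CPM) in saline. It was 2.18-fold lower (1.73 to 2.76, adjusted p = 6.29e-11 in the exact binomial test). Srebf2, the SREBP best known for sterol genes, had 42 counts (38.7 CPM) in bleomycin and 89 counts (81.2 CPM) in saline, and was 2.1-fold lower (1.44 to 3.1, adjusted p = 0.00041 in the exact binomial test).

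Srebf1, the SREBP best known for fatty acid genes, had 71 counts in bleomycin and 116 in saline, a ratio of 0.619 (0.454 to 0.839). Its adjusted p of 0.00824 in the exact binomial test passed, but the ratio stayed short of 2-fold. The ratios of Srebf1 and Srebf2 were not distinguishable: that of Srebf1 was 1.3 times that of Srebf2, with an interval of 0.79 to 2.14.

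Insig2, the second Insig protein, had 27 counts in bleomycin and 15 in saline, with a ratio of 1.82 (0.934 to 3.68) that did not pass the test. Relative to Insig2, Insig1 was 3.95-fold lower in bleomycin than in saline (1.94 to 8.33). Insig2 was 19.9% of the counts of the pair in bleomycin (13.5% to 27.6%, exact binomial interval) and 5.88% in saline (3.33% to 9.52%). Scap, the escort of SREBPs, had 7 counts in bleomycin and 10 in saline.

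The control genes summed to 256 counts in bleomycin and 470 in saline, a ratio of 0.551 (0.471 to 0.643), the lowest of the 5 groups. Without Insig1 the ratio was 0.646 (0.522 to 0.798). Endothelial markers, at 105 counts in bleomycin and 674 in saline, and alveolar type 2 markers, at 11 and 170, were lower in the same library. The single gene Sftpc made up 7 and 154 of the alveolar type 2 counts. The part of such cells or their RNA in these ratios was not tested.

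**Figure D4:**
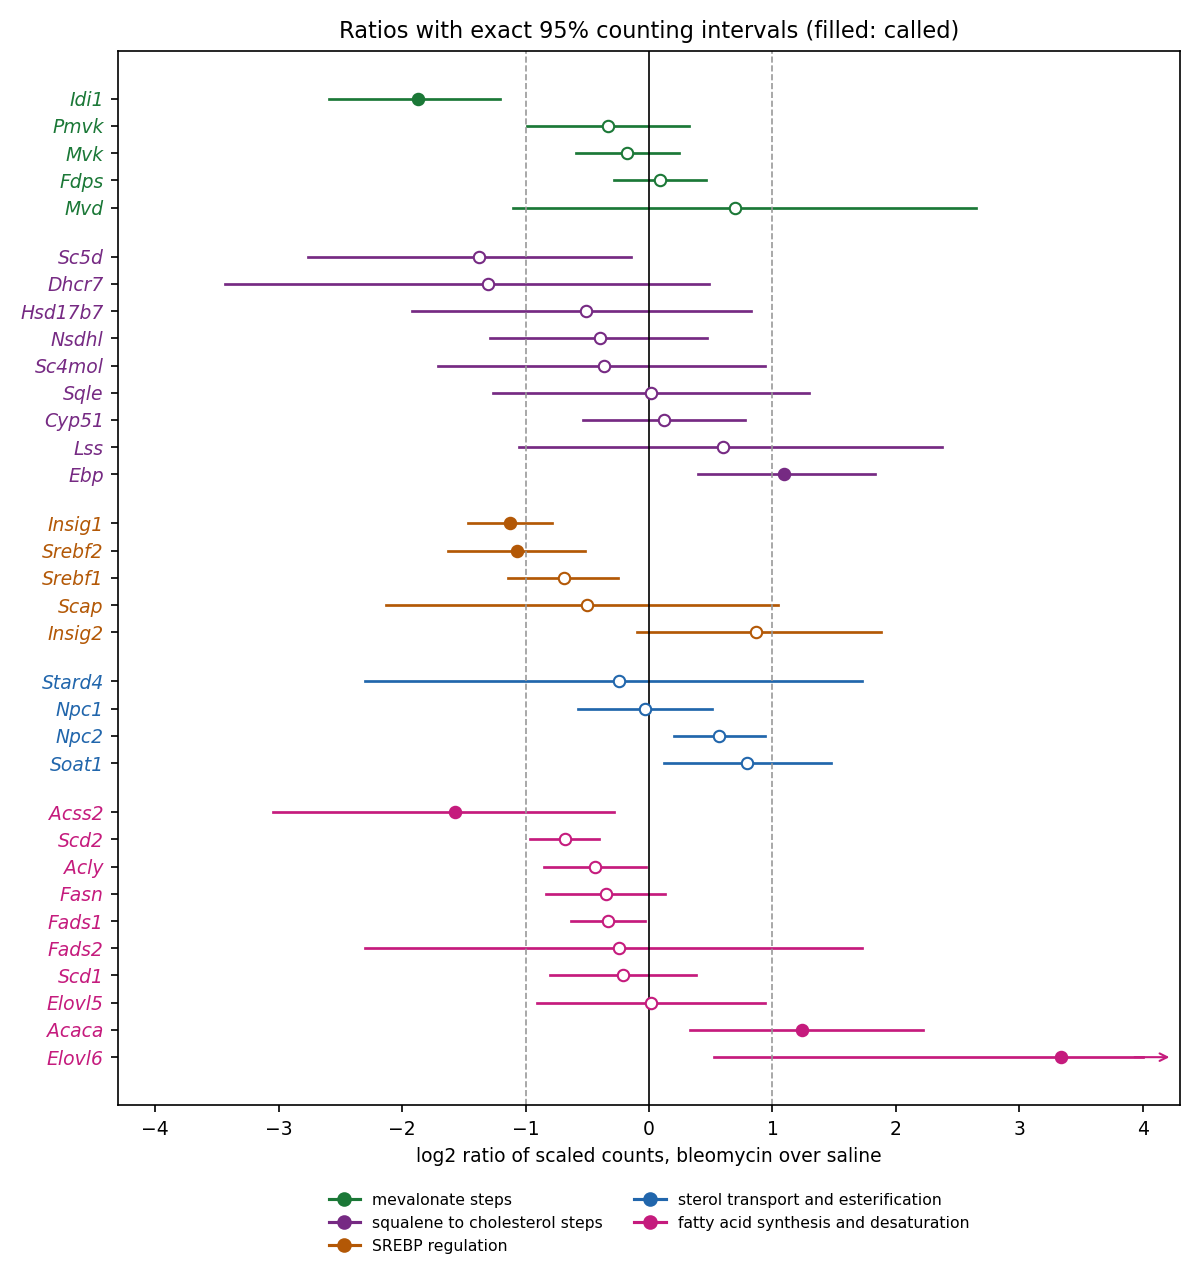
Points give the log2 ratio of TMM-scaled counts, bleomycin over saline, for the 33 tested genes, and lines their exact 95% intervals, which cover counting error only. Filled points are called genes, dashed lines mark 2-fold, and the arrow marks the interval of Elovl6, which runs beyond the axis.

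The genes of sterol transport and storage held no called gene among 4 tested, and summed to more counts in bleomycin. Npc2, the soluble protein that takes cholesterol from lysosomes, had 157 counts in bleomycin and 107 in saline, a ratio of 1.48 (1.15 to 1.92) with an adjusted p of 0.0085 in the exact binomial test, short of 2-fold. Soat1, which esterifies cholesterol for storage, had 53 counts in bleomycin and 31 in saline, a ratio of 1.73 (1.09 to 2.79) and an adjusted p of 0.0562 in the exact binomial test.

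Npc1, the lysosomal membrane partner of Npc2, had 58 counts in bleomycin and 60 in saline. Stard4, a cytosolic sterol carrier, had 5 counts in bleomycin and 6 in saline. The 4 genes summed to 273 counts in bleomycin and 204 in saline, a ratio of 1.35 (1.12 to 1.63). Without Npc2 the ratio was 1.21 (0.916 to 1.6), which includes 1.

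Fatty acid synthesis and desaturation had 3 of 10 genes called, Acaca and Elovl6 higher and Acss2 lower. Over all tested genes, 16.6% were called in either direction, and with 10 genes these shares cannot be told apart. Acss2, which makes acetyl-CoA from acetate, had 7 counts (6.46 CPM) in bleomycin and 21 counts (19.2 CPM) in saline, and was 2.97-fold lower (1.21 to 8.26, adjusted p = 0.046 in the exact binomial test). Acly, which makes acetyl-CoA from citrate, had 87 counts in bleomycin and 119 in saline, a ratio of 0.739 (0.554 to 0.983) that did not pass the test after adjustment.

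Acaca, acetyl-CoA carboxylase, which commits carbon to fatty acids, had 35 counts (32.3 CPM) in bleomycin and 15 counts (13.7 CPM) in saline. It was 2.36-fold higher (1.26 to 4.65, adjusted p = 0.0192 in the exact binomial test). Fasn, the next enzyme, had 66 counts in bleomycin and 85 in saline and did not pass the test. Relative to Fasn, Acaca was 2.99-fold higher in bleomycin than in saline (1.45 to 6.42).

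Elovl6, which lengthens palmitate, had 10 counts in bleomycin and 1 in saline. Its ratio of 10.1 has an exact interval of 1.44 to 439 (adjusted p = 0.0255 in the exact binomial test), so its size is poorly known. Elovl5, which lengthens polyunsaturated chains, had 22 counts in each library.

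Scd2, a stearoyl-CoA desaturase, was the most abundant gene of the set, with 172 counts (159 CPM) in bleomycin and 279 counts (254 CPM) in saline. Its ratio was 0.623 (0.513 to 0.757, adjusted p = 9.81e-06 in the exact binomial test), short of 2-fold. Its paralogue Scd1 had 47 counts in bleomycin and 55 in saline, and made up 21.5% of the pair in bleomycin (16.2% to 27.5%) and 16.5% in saline (12.7% to 20.9%). The ratio of Scd1 was 1.39 times that of Scd2, with an interval of 0.876 to 2.19 that does not separate them.

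Fads1, the delta-5 desaturase of polyunsaturated fatty acids, had 169 counts in bleomycin and 215 in saline, a ratio of 0.795 (0.646 to 0.977) and an adjusted p of 0.0877 in the exact binomial test. Fads2, the delta-6 desaturase, had 5 counts in bleomycin and 6 in saline. Because SAGE counts tags near the transcript end, these levels are not divided by transcript length, and in both libraries the count of Fads1 was far above that of Fads2. The group summed to 620 counts in bleomycin and 818 in saline, a ratio of 0.767 (0.689 to 0.852), and without Scd2 the ratio was 0.841 (0.74 to 0.955).

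**Figure D5:**
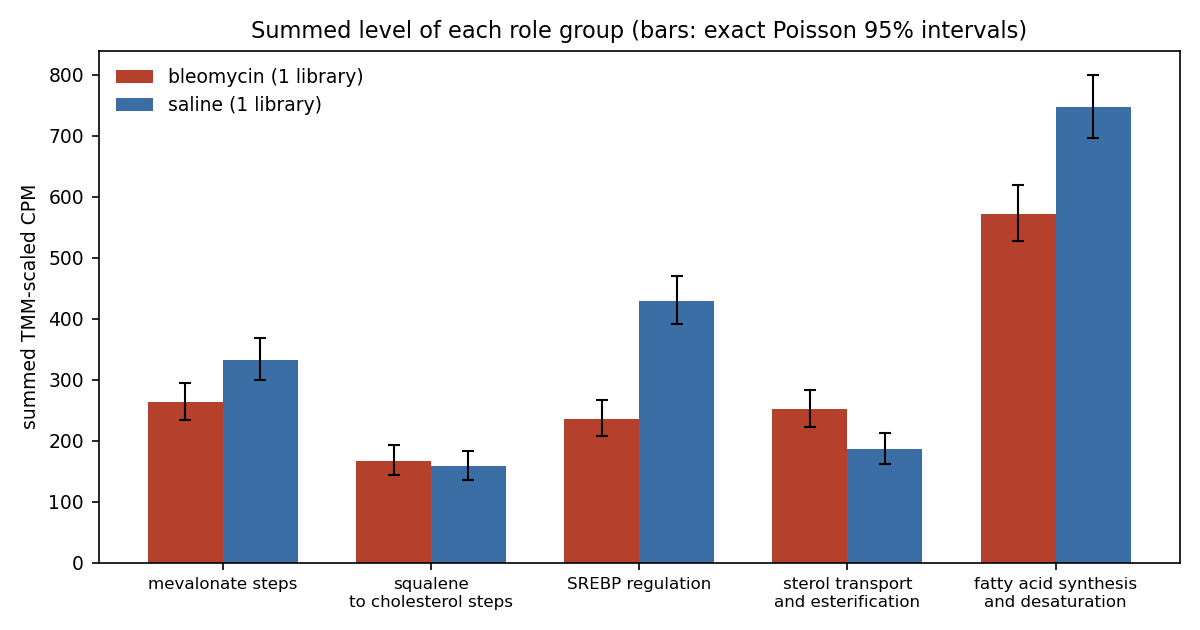
Bars give the summed TMM-scaled CPM of each role group in the bleomycin and the saline library, with exact Poisson 95% intervals of the counts. The SREBP regulation group stood at 236 CPM in bleomycin and 429 CPM in saline, and the squalene to cholesterol group at 167 and 158 CPM.

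Tags of close copies could be counted together. The 21 bases from the last CATG, the site at which SAGE libraries are commonly cut, were read from GENCODE M21 transcripts, and for 30 of the 35 genes they were found in no other gene. At least 1 transcript of Fdps, Lss, Srebf2, Acaca and Elovl6 ends in a tag found in other genes. The labels do not name the enzyme, and Scd1 and Scd2 shared no tag.

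Other genes of these pathways, from 4 lists, had 2 of 62 tested members called higher and 4 lower, against 8.08% and 8.52% of all tested genes. Their median log2 ratio was −0.15. In sterol transport and breakdown, 3 of 16 were lower and 0 higher. Pltp, a phospholipid transfer protein, had 65 counts in bleomycin and 504 in saline and was 7.67-fold lower (5.91 to 10.1, adjusted p = 4.74e-82 in the exact binomial test). Vldlr, a lipoprotein receptor, had 40 counts in bleomycin and 124 in saline, and Cyp27a1, the sterol 27-hydroxylase, had 1 and 18. They were 3.07-fold (2.13 to 4.49) and 17.8-fold (2.81 to 742) lower.

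In the list of SREBP and LXR regulators, 1 of 16 was higher and 1 lower. Nr1h3, the oxysterol receptor LXR alpha, which drives Srebf1, had 49 counts in bleomycin and 134 in saline and was 2.7-fold lower (1.94 to 3.83). Rnf139, a ubiquitin ligase of the endoplasmic reticulum, had 26 counts in bleomycin and 11 in saline and was 2.39-fold higher (1.14 to 5.36). Among other fatty acid genes, 1 of 19 was called, Acsl4, which activates arachidonic acid, with 31 counts in bleomycin and 11 in saline (2.85-fold higher, 1.39 to 6.28). Of the 11 other sterol synthesis genes tested, 0 were called. Acat1, with 64 counts in bleomycin and 121 in saline, and Fdx1, with 65 and 101, were lower but short of 2-fold. Their adjusted p of 0.000377 and 0.0271 in the exact binomial test passed. Por, the electron donor of microsomal sterol enzymes, was the most abundant, with 345 counts in bleomycin and 377 in saline.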

How the data were processed

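The deposited table holds whole-number tag counts per gene for 2 SOLiD SAGE libraries, per the file headers and the labels. BWA 0.6.2 and mm9 are listed, without a role, per the submitters' processing notes. How tags were assigned, whether strand was used and whether counts were scaled before deposit are points not given in the sources used here, and tests and intervals hold only for raw counts. Each library comes from 3 mice. A blank line was left out. In 33 entries (0.86% of counts) a phrase stands in place of the symbol; they stayed in totals and tests.

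Libraries were scaled by TMM in edgeR 4.0.16 (R 4.3.3), with factors of 0.986 for bleomycin and 1.01 for saline. A quasi-likelihood fit needs replicates, so an exact two-sided binomial test (scipy 1.17.1) was run for each gene with at least 10 counts and adjusted over 9369 genes, with a required ratio of 2. Intervals are exact Clopper-Pearson 95% intervals. A single count is worth 0.922 CPM in bleomycin and 0.912 CPM in saline, and a count of 0 allows up to 2.77 and 2.74 CPM. The labels mention no molecular identifiers, and intervals and floors therefore reflect the error of counting alone. The test was tried on simulated data that held counting error only, so that trial cannot show how the test behaves with spread between preparations.

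The genes, lists and tests were chosen with earlier results of these data known. Every gene of the set is reported. Outside it, up to 3 called genes per list and direction, by count, are named. For a list with no call, its most abundant gene and the genes that passed the test short of 2-fold are named. The alternatives were other scalings (total counts and DESeq2 1.42.0 size factors, both 1), other count minimums, ratios, adjustment and prior count, edgeR exact tests with an assumed coefficient of variation, and sums without their most abundant gene.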

Additional observations from a re-analysis of the deposited data

How the results depend on the processing

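Under total counts and DESeq2 size factors the same 7 genes were called, and the summed ratios and the median of the set (−0.27 and −0.24) stayed near their values. With no minimum count 3 genes of the set were called higher and 3 lower, since Acss2 no longer passed (adjusted p = 0.0665 in the exact binomial test). When 50 counts were required, 2 genes of the set were higher and 3 lower among 18 tested, with 5 past 2-fold, and over all genes 396 higher and 484 lower against 757 and 798. A prior count of 5 left 5 genes past 2-fold, against 9. A ratio of at least 1.5 gave 3 higher and 6 lower, adding Srebf1 and Scd2. A ratio of at least 3 left 1 higher (Elovl6) and 1 lower (Idi1), and 443 and 445 over all genes. Bonferroni adjustment left 0 higher and 2 lower (Idi1 and Insig1), and 288 and 333 over all genes.

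The calls depend most on the spread assumed between preparations, which 1 library per group cannot measure. In edgeR's exact test with an assumed coefficient of variation of 0.2, 0 genes of the set were called higher and 1 lower (Idi1), and over all genes 274 and 333. With 0.4, 0 were called in either direction, and 21 and 8 over all genes. Without its most abundant gene, the summed ratio was 0.662 for the mevalonate steps and 0.646 for SREBP regulation. Among pathway genes outside the set, 1 was called higher under total counts, DESeq2 size factors or no minimum, 0 with a minimum of 50, Bonferroni adjustment, a 3-fold ratio or an assumed coefficient of variation of 0.2 or 0.4, and 4 with a ratio of at least 1.5. Those called lower were 8 under the 1.5-fold rule and 0 when the coefficient of variation was set to 0.4. The cause of these differences was not tested. Depth limits the scarce genes: for Dhcr7, with 4 counts in bleomycin and 10 in saline, the interval runs from 0.0926 to 1.4. No paired analysis was possible because each group is 1 library.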
